A study of Mus musculus with 24 samples.

Results

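The STAT and SOCS genes described here are the 9 genes of the table with the symbols Stat2, Stat3, Stat4, Stat5a, Stat6, Socs1, Socs2, Socs3 and Cish, out of 54532 genes in all. They were measured by polyA RNA sequencing in macrophages (BMDMs) and dendritic cells (BMDCs) grown from mouse bone marrow, with 3 libraries in each of 8 groups. Both cell types were grown from marrow of tamoxifen-treated Tmem173 fl/fl mice (label WT) or Tmem173 fl/fl Lyz2-Cre ert2 mice (label CRE) on the C57BL/6N background, so the floxed allele was carried by every group, and Tmem173 encodes STING, the receptor for cyclic dinucleotides. The cells were left as controls (CT) or given DMXAA (DX), an agonist of mouse STING. The dose is labelled 40 µM but stated in mass per volume elsewhere in the study, so the concentration is uncertain. Exposure times are stated for other DMXAA experiments, and none is tied to these libraries. BMDMs were grown with supernatant of L929 cells, a fibroblast line that secretes M-CSF, and BMDCs with GM-CSF and IL-4. Cre was driven by Lyz2, a gene of macrophages and granulocytes. Whether libraries came from separate mice is not stated, so p-values measure only the spread between these libraries, which may be technical.

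STAT proteins are latent transcription factors that Janus kinases phosphorylate at cytokine receptors, after which they pair, enter the nucleus and bind DNA. Type I interferon, which cells make when STING is active, acts through complexes that hold STAT2 and IRF9 and bind interferon-stimulated response elements (ISRE), whereas STAT pairs bind interferon-gamma activated sites (GAS). GM-CSF signals mainly through STAT5 and IL-4 through STAT6. The SOCS proteins and CISH are made in response to these signals and feed back on the receptors and kinases.

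Total counts were 15657347 to 18912887 per library. The BMDM libraries numbered 1 and 2 expressed the macrophage markers, at list medians of 668 to 1127 CPM (reads scaled to a common library total). The BMDC libraries expressed the dendritic cell markers, at medians of 153 to 608 CPM against at most 8.20 CPM in those BMDM libraries. The BMDC libraries also held the macrophage markers, at medians of 81.2 to 208 CPM. Their basophil and mast cell markers summed to 34.8 to 489 CPM, and the part of such RNA in the results was not tested. The 4 BMDM libraries numbered 3 did not match their label. Their leukocyte list had medians of at most 0.548 CPM, against 420 to 662 CPM in all other libraries, and their fibroblast list had medians of 367 to 565 CPM, so they are given apart and BMDM comparisons used numbers 1 and 2. WT BMDM number 2 also held more fibroblast marker RNA, with 496 summed CPM in control and 454 under DMXAA over 9 markers, against 33.9 to 71.2 in the other 6 BMDM libraries. For each pair of libraries of a cell type, a mean chi-square per gene was computed that is 1 for counting error alone. Of 132 pairs, 6 lay between 3.23 and 4.95 and the next at 14.2. In BMDCs these close pairs crossed the labels, joining WT number 3 with CRE number 1 and WT number 2 with CRE number 3, in control and under DMXAA. In BMDMs they were the libraries labelled CRE numbers 1 and 2, in control and under DMXAA, and the WT pairs were at 92.3 and 69.2. Each library was kept as a replicate. All pairs differed beyond counting error, but this does not show that they came from separate cultures. The CRE BMDM comparisons were also fitted with numbers 1 and 2 summed into 1 library per group. The close BMDC pairs were not summed, so the WT and CRE BMDC responses may not be independent of each other. Of 11411 genes, edgeR then called 63 in the CRE BMDM response, all higher, and 0 in CRE against WT under DMXAA or in the interaction of label and DMXAA, where 1598 and 609 had an unadjusted p under 0.05. The members' calls in these 3 comparisons were all lost in that fit, which has fewer samples. Tmem173 itself was at 28.8 to 51.6 FPKM in WT and 19.7 to 36.8 FPKM in CRE BMDC controls, and at 9.91 to 14.7 and 8.76 to 10.4 FPKM in WT and CRE BMDM controls numbered 1 and 2. Neither difference was called (log2 fold changes -0.44 ± 0.29 and -0.39 ± 0.23 SE, edgeR adjusted p = 1 and 0.772), while under DMXAA Tmem173 was lower in the CRE BMDMs (log2 difference -1.45 ± 0.24, adjusted p = 0.00921), a call that was lost with the CRE libraries summed (-1.46 ± 0.38, adjusted p = 0.242). Values per gene do not show which exons were read.

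Promoter windows are shown for Stat2, Socs1, Socs3 and Cish, the members that hold a GAS, wider GAS or ISRE match near a start site and were called in at least 1 DMXAA response. RefSeq windows (GRCm38.p6, 250 bases before to 50 after each start) matched 8 of 9 members with 10 windows, and Socs2 had none. The letters TTCNNNGAA (GAS), TTCNNNNGAA (a wider GAS form) and GAAANNGAAA (an ISRE core) were searched on both strands, where each window is printed 5′ to 3′ along its gene, from 250 bases before to 20 after the start, with matches in capitals.
Stat2, chr10:128270248-128270517, plus strand: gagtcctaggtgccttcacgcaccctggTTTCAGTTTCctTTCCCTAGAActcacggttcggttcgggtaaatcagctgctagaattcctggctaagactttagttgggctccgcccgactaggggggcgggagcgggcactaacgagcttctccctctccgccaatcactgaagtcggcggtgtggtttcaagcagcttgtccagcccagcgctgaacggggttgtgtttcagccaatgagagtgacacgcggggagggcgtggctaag
Socs1, chr16:10785517-10785786, minus strand: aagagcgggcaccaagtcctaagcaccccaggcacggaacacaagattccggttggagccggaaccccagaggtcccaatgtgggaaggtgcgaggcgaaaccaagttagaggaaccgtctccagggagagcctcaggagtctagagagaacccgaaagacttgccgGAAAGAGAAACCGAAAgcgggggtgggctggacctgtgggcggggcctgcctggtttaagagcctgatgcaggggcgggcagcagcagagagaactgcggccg
Socs3, chr11:117969347-117969616, minus strand: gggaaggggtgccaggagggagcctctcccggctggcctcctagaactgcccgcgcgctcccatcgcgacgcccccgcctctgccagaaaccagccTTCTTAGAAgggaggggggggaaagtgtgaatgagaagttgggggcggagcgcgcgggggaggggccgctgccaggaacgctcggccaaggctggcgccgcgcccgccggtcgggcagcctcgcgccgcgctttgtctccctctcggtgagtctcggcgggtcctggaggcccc
Cish, chr9:107296409-107296678, plus strand: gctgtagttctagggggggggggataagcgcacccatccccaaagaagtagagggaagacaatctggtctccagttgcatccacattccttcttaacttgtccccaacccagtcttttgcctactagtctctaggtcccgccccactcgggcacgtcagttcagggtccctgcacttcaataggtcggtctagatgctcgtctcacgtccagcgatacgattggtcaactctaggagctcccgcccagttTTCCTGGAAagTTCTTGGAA
Stat2 held 1 ISRE core at -222 and a wider GAS match at -210 from the start. Socs1 held 2 ISRE cores, at -83 and -77, which overlap each other. Socs3 held 1 GAS match at -154, and Cish held 2, at 1 and 12. The other windows held no match except 1 ISRE core in the window of the downstream Stat4 start. Of all 32851 windows in the table, 8.30% held the GAS letters, 6.95% the wider form and 3.44% the ISRE core, against 2, 1 and 3 of the 10 member windows. A match is a run of letters and not evidence of binding.

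In the WT BMDCs, DMXAA raised 7 of the 9 members (edgeR quasi-likelihood test, Benjamini-Hochberg adjusted p under 0.05, here called), where 30.9% of 12700 tested genes were called in either direction. In the CRE BMDCs 5 of 9 rose, with 24.5% of genes called. These counts come from the unpaired fit. Paired by replicate number within a label, edgeR also called Stat6 and Cish in the CRE BMDCs (adjusted p = 0.0044 and 0.0151) and Stat4 in the WT BMDCs (adjusted p = 0.0372). The counts are thus not a comparison of the labels. In the WT BMDMs 6 members passed the filter on low values (at least 1 FPKM in at least 2 libraries), of which 3 rose and 1 fell, with 39.2% of 11569 genes called. In the CRE BMDMs 3 of 6 rose, with 10.0% of genes called, but 0 of 6 were called with the CRE libraries summed. The shares among members are set beside shares among all genes because DMXAA moved a large part of the transcriptome. Stat2, Stat3 and Socs1 were called higher in all 4 responses, and Stat4, Socs2 and Cish were too low in BMDMs to be tested there. Socs1 would not have passed the BMDM filter on its controls, of which 1 reached 1 FPKM, so it passed mainly through its DMXAA libraries.

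**Figure D1:**
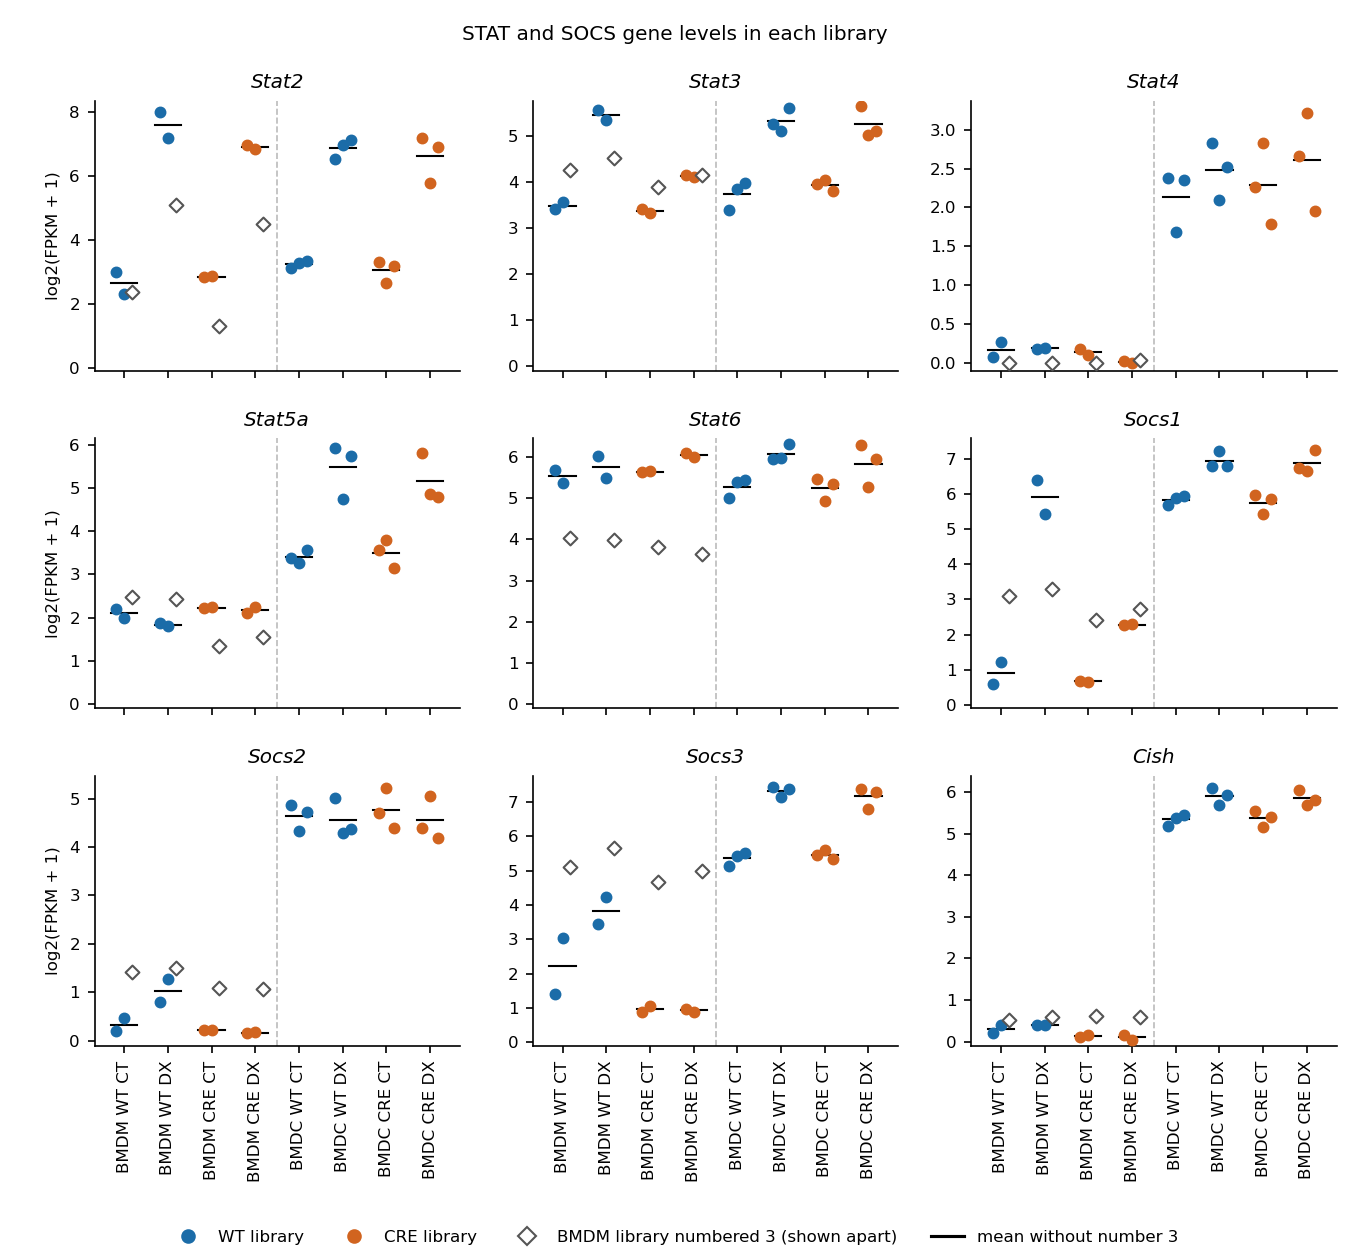
FPKM of each member as log2(FPKM + 1) (vertical axis) in every library of the 8 groups (horizontal axis), with WT in blue, CRE in orange, group means as bars and the 4 BMDM libraries numbered 3 as open diamonds left out of the means. Stat4, Socs2 and Cish lie far higher in BMDCs than in BMDMs, and the CRE BMDMs lie below the WT BMDMs under DMXAA for Stat3, Socs1 and Socs3.

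Stat2 (chr10:128270559-128292849, GRCm38, plus strand) encodes a STAT specific to interferon signalling and had the largest rise of the 5 STAT members, where tested, in each of the 4 responses. Its level was 7.01 and 3.92 FPKM in the WT BMDM controls and 258 and 143 FPKM under DMXAA. In the CRE BMDMs it was 6.10 and 6.28 FPKM in control and 125 and 114 FPKM under DMXAA. Every DMXAA library was far above every control. In FPKM both CRE DMXAA libraries lay below both WT ones. In CPM the labels overlapped under DMXAA, at 1050 and 655 CPM in WT and 660 and 597 CPM in CRE. The rise was 5.09 ± 0.39 (log2 fold change ± SE, 34.0-fold, adjusted p = 0.000186) in WT and 4.25 ± 0.37 (19.0-fold, adjusted p = 0.000879) in CRE BMDMs. The difference between CRE and WT under DMXAA, -0.70 ± 0.33, was not called (adjusted p = 0.188), nor was that between their responses, -0.84 ± 0.47 (adjusted p = 0.380). With the CRE libraries summed, the CRE rise kept its size at 4.25 ± 0.67 but was no longer called (adjusted p = 0.123).

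In BMDCs Stat2 rose from 7.68, 8.64 and 9.02 FPKM to 92.2, 124 and 138 FPKM in WT. In the CRE BMDCs it rose from 8.96, 5.29 and 8.13 FPKM to 146, 53.7 and 118 FPKM. The lowest DMXAA value belonged to CRE number 2, which was also the BMDC sample with the most neutrophil marker RNA (list median 19.9 CPM in control and 8.85 CPM under DMXAA, against at most 1.36 CPM in the other 10 BMDC libraries), whose part in the result was not tested. The responses were 3.79 ± 0.36 (13.8-fold, adjusted p = 2.15e-05) in WT and 3.80 ± 0.36 (14.0-fold, adjusted p = 2.35e-05) in CRE BMDCs. The control levels of Stat2 were not called between the cell types (0.57 ± 0.37, BMDC over BMDM, adjusted p = 0.284), nor was its WT response in BMDCs minus that in BMDMs (-1.28 ± 0.52, adjusted p = 0.262, unadjusted p = 0.0261 in edgeR).

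Stat3 (chr11:100885098-100939540, minus strand), which transmits IL-6 and IL-10 signals, rose in all 4 responses, and less in CRE than in WT BMDMs. It was at 9.58 and 10.7 FPKM in the WT BMDM controls and 45.7 and 39.2 FPKM under DMXAA. In the CRE BMDMs it was at 9.57 and 9.07 FPKM in control and 16.8 and 16.1 FPKM under DMXAA. The 4 controls lay within 9.07 to 10.7 FPKM, whereas both CRE DMXAA libraries lay below both WT ones. The rise was 1.95 ± 0.13 (3.87-fold, adjusted p = 0.000114) in WT and 0.80 ± 0.13 (1.74-fold, adjusted p = 0.0128) in CRE BMDMs, the latter not called without any 1 of the 4 CRE libraries (adjusted p = 0.1001 to 0.162). Under DMXAA, Stat3 was lower in CRE than in WT by a log2 difference of -1.32 ± 0.13 (adjusted p = 0.00179), a comparison in which 3 of 6 members and 19.2% of 11569 genes were called.

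The test of the difference between the responses itself called Stat3, at -1.16 ± 0.18 (adjusted p = 0.0271), as 1 of 6 members and among 3.66% of genes. Leaving out any 1 of the 4 CRE libraries ended that call, with log2 differences of -1.20 to -1.12 and adjusted p of 0.172 to 0.187. With the CRE libraries summed, the difference was the same size, but neither the CRE response (adjusted p = 0.714), the difference under DMXAA (adjusted p = 0.188) nor the interaction (adjusted p = 0.871) was called. In BMDCs Stat3 rose from 9.51, 13.3 and 14.8 FPKM to 37.0, 33.1 and 47.4 FPKM in WT and from 14.4, 15.4 and 12.9 FPKM to 48.8, 31.3 and 33.2 FPKM in CRE. The lowest DMXAA library exceeded the highest control in both labels, and the rises were 1.62 ± 0.23 (3.08-fold, adjusted p = 0.000312) and 1.39 ± 0.23 (2.62-fold, adjusted p = 0.00111). Stat3 and Stat5a share 72 exon bases on opposite strands, and the counting is not stated to use strand, so reads from that stretch cannot be told apart.

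Stat5a (chr11:100859351-100885169, plus strand), a main carrier of GM-CSF signals, rose in BMDCs and did not in BMDMs. Its WT BMDC controls were at 9.36, 8.57 and 10.8 FPKM and rose to 59.7, 26.1 and 52.9 FPKM under DMXAA. The CRE BMDCs rose from 10.8, 12.9 and 7.88 FPKM to 55.0, 28.3 and 26.9 FPKM. Controls and DMXAA libraries did not overlap. The rises were 2.24 ± 0.35 (4.74-fold, adjusted p = 0.0006) in WT and 1.78 ± 0.34 (3.44-fold, adjusted p = 0.00306) in CRE BMDCs. The WT BMDMs were at 3.61 and 2.997 FPKM in control and 2.64 and 2.48 FPKM under DMXAA, and the CRE BMDMs at 3.65 and 3.73 FPKM in control and 3.30 and 3.73 FPKM under DMXAA.

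Both WT BMDM DMXAA values of Stat5a were below both controls, and the log2 fold change of -0.48 ± 0.15 was called with an adjusted p of 0.0393, but it was lost with another scaling (median of ratios, adjusted p = 0.0665), with DESeq2 (adjusted p = 0.0921), without WT control 1 or either WT DMXAA library (adjusted p = 0.0946 to 0.127) and with the CRE libraries summed (adjusted p = 0.221). The CRE BMDM response, -0.09 ± 0.14, was not called, nor was the difference of CRE from WT under DMXAA, 0.50 ± 0.15 (adjusted p = 0.0549, unadjusted p = 0.0112 in edgeR). The difference between the WT responses of the cell types, 2.74 ± 0.47, was called (adjusted p = 0.00484) along with Socs1, as 2 of 9 members where 2.61% of 13368 genes were called. It stayed called in each of 10 fits that left out 1 library, at log2 differences of 2.46 to 2.95. Stat5a was also higher in WT BMDC than in WT BMDM controls by 1.48 ± 0.34 (2.79-fold, adjusted p = 0.00394). In bulk RNA, fewer cells of a type and less RNA per cell cannot be told apart, which applies to every level given here.

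Stat6 (chr10:127642986-127660957, plus strand), which transmits IL-4 and IL-13 signals, was expressed in both cell types and in the unpaired fit was called in the WT BMDC response alone. It was at 50.8 and 40.4 FPKM in WT BMDM controls and 64.0 and 44.3 FPKM under DMXAA, and at 48.5 and 49.6 FPKM in CRE BMDM controls and 67.7 and 63.2 FPKM under DMXAA. The BMDM log2 fold changes, 0.14 ± 0.19 in WT and 0.39 ± 0.19 in CRE, were not called (adjusted p = 0.622 and 0.237). In BMDCs it went from 30.9, 41.1 and 42.1 FPKM to 60.5, 62.1 and 78.9 FPKM in WT and from 43.3, 29.4 and 39.9 FPKM to 77.3, 37.7 and 61.0 FPKM in CRE. In FPKM the WT BMDC groups did not overlap, whereas in CPM they did (215 CPM in the highest control, 212 CPM in the lowest DMXAA library). In the CRE BMDCs the DMXAA value of number 2 lay inside the control range. The WT rise of 0.80 ± 0.26 (1.74-fold) was called (adjusted p = 0.0364), and the CRE value of 0.62 ± 0.26 was not (adjusted p = 0.107). Paired by replicate number within a label, the CRE rise was called (0.58, adjusted p = 0.0044). The WT call was lost without WT control 1, 2 or 3 or WT DMXAA 2 or 3, with adjusted p of 0.0668 to 0.136.

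Stat4 (chr1:51987148-52107189, plus strand), the transducer of IL-12, was detected above 1 FPKM in BMDCs alone. Its levels were 4.22, 2.21 and 4.12 FPKM in WT control, 6.08, 3.29 and 4.73 FPKM in WT DMXAA, 3.82, 6.12 and 2.45 FPKM in CRE control and 5.31, 8.26 and 2.88 FPKM in CRE DMXAA BMDCs. The BMDM libraries numbered 1 and 2 were at 0 to 0.208 FPKM, which is 0 to 17 reads, so no BMDM library reached the lowest BMDC library. In FPKM each DMXAA library was above the control of its own number. In CPM number 3 of each label was below it, at 16.3 against 18.5 CPM in WT and 9.53 against 10.6 CPM in CRE. The groups overlapped, and the responses of 0.40 ± 0.42 in WT (adjusted p = 0.541) and 0.39 ± 0.42 in CRE (adjusted p = 0.575) were not called. Paired by number within a label, the WT value was 0.41 and called (adjusted p = 0.0372). CRE number 2 had the highest level in both treatments, as it had for Socs2, beside its neutrophil marker RNA, whose part was not tested.

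**Figure D2:**
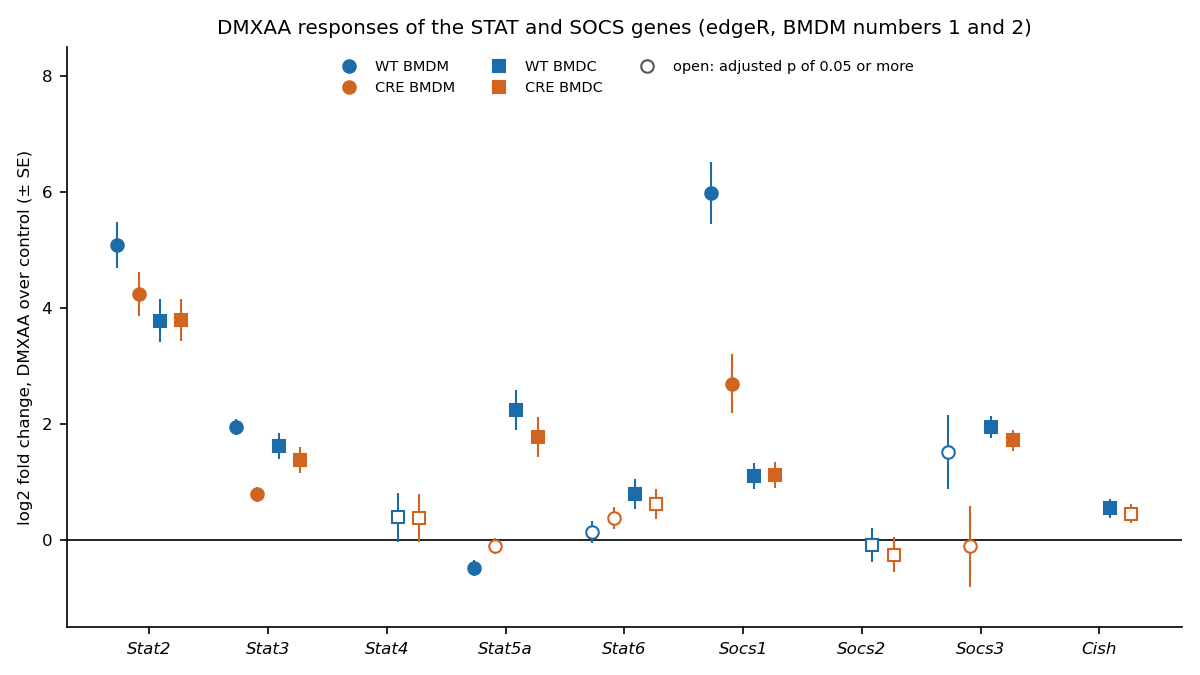
Log2 fold change of DMXAA over control with its standard error (vertical axis) for each member (horizontal axis) in the 4 responses, as fitted by edgeR, with filled symbols where the adjusted p is under 0.05. Socs1 rose by 5.98 in WT BMDMs and 2.70 in CRE BMDMs but by 1.11 and 1.12 in BMDCs, whereas Stat5a rose in BMDCs and not in BMDMs.

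Among the inhibitors, Socs1 (chr16:10782240-10785536, minus strand), which blocks Janus kinases and restrains interferon signalling, showed the largest response of any member. It was at 0.505 and 1.32 FPKM in the WT BMDM controls and 83.6 and 42.2 FPKM under DMXAA. In the CRE BMDMs it was at 0.596 and 0.572 FPKM in control and 3.85 and 3.90 FPKM under DMXAA. The controls of the labels overlapped, and under DMXAA both CRE libraries were far below both WT libraries. The rise was 5.98 ± 0.53 (63.1-fold, adjusted p = 0.000333) in WT and 2.70 ± 0.51 (6.51-fold, adjusted p = 0.0216) in CRE. Under DMXAA, CRE was lower than WT by a log2 difference of -3.97 ± 0.47 (adjusted p = 0.00339), while in control the difference of -0.69 ± 0.53 was not called (adjusted p = 0.817). The interaction, -3.28 ± 0.70, missed the threshold (adjusted p = 0.0568) and passed it with DESeq2 (adjusted p = 2.18e-05) and with limma on log2(FPKM + 1) (adjusted p = 0.0178). Without either CRE DMXAA library the difference under DMXAA had an adjusted p of 0.0553, and with the CRE libraries summed it was -3.98 ± 0.82 and not called (adjusted p = 0.191), nor was the CRE response (adjusted p = 0.586). That response was also lost without any 1 of the 4 CRE libraries (adjusted p = 0.119 to 0.177).

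In BMDCs Socs1 was already high in control, at 50.6, 57.7 and 60.3 FPKM in WT and 62.1, 42.1 and 57.7 FPKM in CRE. Under DMXAA it reached 109, 148 and 111 FPKM in WT and 105, 101 and 152 FPKM in CRE. All 6 DMXAA libraries were above all 6 controls, whatever the label. The rises were 1.11 ± 0.22 (2.15-fold, adjusted p = 0.00282) and 1.12 ± 0.22 (2.18-fold, adjusted p = 0.00337). WT BMDC controls exceeded WT BMDM controls by 5.88 ± 0.44 (59.0-fold, adjusted p = 1.64e-07), and the WT response was smaller in BMDCs by a log2 difference of -4.86 ± 0.50 (adjusted p = 6.58e-05). Leaving out 1 library at a time, that difference ranged from -5.76 to -4.35 and was called in all 10 fits. With the BMDM libraries numbered 3 included it was -2.74 and not called (adjusted p = 1).

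**Figure D3:**
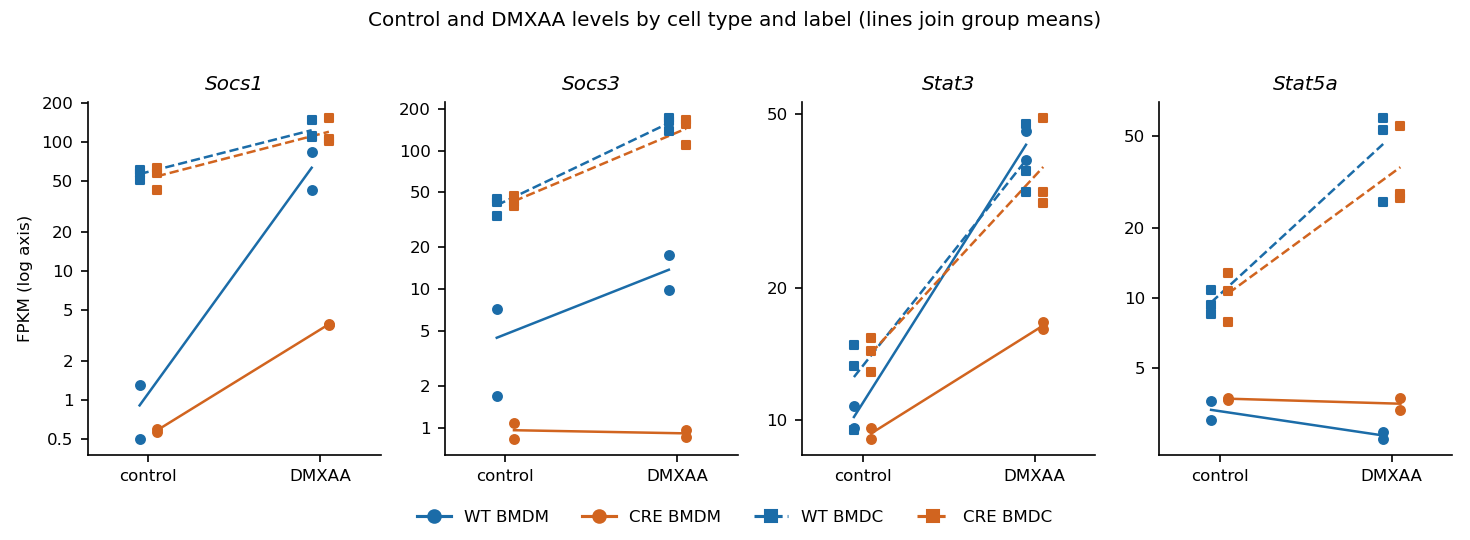
FPKM on a log axis (vertical) in control and under DMXAA (horizontal) for Socs1, Socs3, Stat3 and Stat5a, with 1 point per library, BMDMs as circles without number 3, BMDCs as squares and lines joining group means. The WT BMDM line of Socs1 climbs from 0.913 to 62.9 FPKM while its BMDC lines start at 56.2 and 54.0 FPKM, and the CRE BMDM line of Socs3 runs from 0.956 to 0.907 FPKM.

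Socs3 (chr11:117966079-117970047, minus strand), an inhibitor of IL-6 receptor signalling, was lower in CRE than in WT BMDMs under DMXAA. It was at 1.68 and 7.23 FPKM in WT BMDM control and 9.88 and 17.7 FPKM under DMXAA. In the CRE BMDMs it was at 0.832 and 1.08 FPKM in control and 0.957 and 0.857 FPKM under DMXAA. In FPKM the WT groups did not overlap, though in CPM they did (23.3 CPM in control number 2, 19.6 CPM in DMXAA number 1). The CRE groups overlapped, and every CRE library was below every WT library. Of the CRE libraries, which held 40 to 62 reads, only control number 2 reached 1 FPKM. Socs3 thus passed the BMDM filter mainly through its WT libraries, so the direction of its label differences was partly set by the filter. In both treatments the higher WT value was number 2, the sample with 496 and 454 summed CPM of fibroblast markers, and the 4 libraries numbered 3 held 24.4 to 49.9 FPKM of Socs3. The part of that RNA in the Socs3 values was not tested.

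The WT BMDM response of Socs3 was 1.52 ± 0.64 (2.86-fold) and not called (adjusted p = 0.105), and ranged from 0.82 without WT control number 1 (adjusted p = 0.145) to 2.96 without WT control number 2, then called (adjusted p = 0.00322). On all 8 libraries, DESeq2 and limma on log2(FPKM + 1) called it (adjusted p = 0.0293 and 0.0474). The CRE response was -0.10 ± 0.70 (adjusted p = 0.946). Under DMXAA, CRE was lower than WT by a log2 difference of -3.88 ± 0.72 (adjusted p = 0.0137), and without WT DMXAA number 2, which carried the fibroblast RNA, the difference was -3.39 and still called (adjusted p = 0.0322). It was lost without either CRE DMXAA library (adjusted p = 0.114 and 0.119) and with these summed (adjusted p = 0.271). In control the difference was -2.26 ± 0.68 with an unadjusted p of 0.0133 in edgeR and an adjusted p of 0.631, where 0 of 6 members and 0.0432% of genes were called, and it was -0.83 without WT control number 2 and -2.97, then called (adjusted p = 0.0265), without WT control number 1. In BMDCs Socs3 rose from 33.9, 42.3 and 44.9 FPKM to 172, 140 and 164 FPKM in WT and from 42.8, 47.3 and 39.6 FPKM to 167, 111 and 156 FPKM in CRE. All DMXAA libraries were above all controls, with rises of 1.95 ± 0.19 (3.87-fold, adjusted p = 2.26e-05) and 1.72 ± 0.19 (3.30-fold, adjusted p = 6.72e-05). WT BMDC controls exceeded WT BMDM controls by 3.12 ± 0.45 (8.71-fold, adjusted p = 8.95e-05), a difference of 1.55 that was not called with the libraries numbered 3 included (adjusted p = 0.482).

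Cish (chr9:107296026-107302784, plus strand), a STAT5 target that feeds back on cytokine receptors, was at 35.7, 40.8 and 43.0 FPKM in WT BMDC controls and 67.2, 50.7 and 59.7 FPKM under DMXAA. In the CRE BMDCs it was at 46.0, 35.1 and 41.3 FPKM in control and 65.0, 50.8 and 55.3 FPKM under DMXAA. In FPKM all DMXAA libraries were above all controls. In CPM the groups overlapped, at 237 to 342 CPM in controls and 280 to 372 CPM under DMXAA, and WT number 2 went from 297 to 280 CPM. The WT log2 fold change of 0.55 ± 0.17 (1.46-fold) was called (adjusted p = 0.0260) and the CRE value of 0.46 ± 0.17 (1.38-fold) was not (adjusted p = 0.0650), but paired by number within a label the CRE rise was called as well (adjusted p = 0.0151). The WT call was lost without WT control 1 or 2 or WT DMXAA 1 or 3, with adjusted p of 0.0680 to 0.103. The BMDM libraries numbered 1 and 2 held 0.0290 to 0.331 FPKM of Cish, from 3 to 42 reads. Cish shares 261 exon bases with the pseudogene Gm17040, which held 218 reads over all libraries against 63691 for Cish.

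Socs2 (chr10:95385362-95417180, minus strand), an inhibitor of growth hormone signalling and also a STAT5 target, was at 28.2, 19.1 and 25.5 FPKM in WT and 24.96, 36.2 and 20.1 FPKM in CRE BMDC controls. Under DMXAA it was at 31.4, 18.5 and 19.8 FPKM in WT and 20.1, 32.2 and 17.3 FPKM in CRE. The groups overlapped and the responses of -0.08 ± 0.29 and -0.24 ± 0.29 were not called (adjusted p = 0.873 and 0.622). The WT BMDMs held 0.154 and 0.383 FPKM in control and 0.733 and 1.42 FPKM under DMXAA, and the CRE BMDMs 0.120 to 0.169 FPKM in both. Socs2 missed the BMDM filter, since a single library passed 1 FPKM, and in the fit with no filter its WT BMDM log2 fold change was 1.91 ± 0.45 (adjusted p = 0.000314), with the higher value again in number 2 of each treatment, and the libraries numbered 3 held 1.10 to 1.82 FPKM. The difference of its WT responses between cell types, -1.96 ± 0.55, was not called (adjusted p = 0.0780).

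Across WT controls, BMDCs exceeded BMDMs in 6 of 9 members, where 28.5% of 13368 genes were called in either direction. Of these, Stat4 and Cish passed the filter through BMDC libraries alone, and Socs2 through BMDCs and 1 BMDM library, so they had to differ between the cell types. Their log2 differences were 7.36 ± 0.39 for Cish (164-fold, adjusted p = 6.84e-09), 6.43 ± 0.50 for Socs2 (86.3-fold, adjusted p = 2.47e-07) and 4.68 ± 0.65 for Stat4 (25.6-fold, adjusted p = 6.02e-05). Socs1, Socs3 and Stat5a make up the rest, with the differences given above, and all 6 were called in each of 5 fits that left out 1 library. Stat3 and Stat6 were not called, at 0.25 ± 0.22 and -0.32 ± 0.26 (adjusted p = 0.434 and 0.404). The medium, the cytokines and the cell type changed together between BMDMs and BMDCs and cannot be told apart.

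Between the labels in BMDCs, 0 of 9 members were called under DMXAA, in control or in the interaction, where 0% of 12700 genes were called in each by edgeR. The unadjusted p was under 0.05 for 0 members and for 123, 111 and 66 of all genes, and DESeq2 called 0, 0 and 1 genes. The members' differences, CRE minus WT, lay between -0.33 and 0.22 under DMXAA and between -0.18 and 0.23 in control on the log2 scale, with standard errors of 0.17 to 0.42, so differences of about that size were not detectable here. In each treatment, all 3 WT libraries had their closest library under the CRE label and all 3 CRE libraries theirs under the WT label. In the 2 close control pairs given above, Tmem173 was at 35.3 and 36.8 FPKM and at 28.8 and 28.4 FPKM.

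In the BMDM libraries numbered 3, given apart, Stat2 was at 4.21 FPKM in WT control and 33.0 FPKM under DMXAA, and at 1.49 and 21.5 FPKM in CRE. These were ratios of 7.83 and 14.4, with 1 library a group and no test. Socs1 was at 7.60 and 8.92 FPKM in WT and 4.34 and 5.57 FPKM in CRE, ratios of 1.17 and 1.28. Socs3 was at 33.3 and 49.9 FPKM in WT and 24.4 and 30.8 FPKM in CRE, and Stat3 at 18.1 and 21.8 FPKM in WT and 13.7 and 16.7 FPKM in CRE. Stat6 was at 11.5 to 15.4 FPKM, below all other libraries, Stat5a at 1.56 to 4.60 FPKM, Cish at 0.426 to 0.537 FPKM, and Stat4 at 0 to 0.0317 FPKM, which is at most 3 reads. With these libraries in the fit, 0 members were called in any comparison within BMDMs.

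The counts of called genes in the pathway lists that follow stand beside 30.9% and 24.5% of all genes called in the WT and CRE BMDC responses and 39.2% and 10.0% in the WT and CRE BMDM responses. The CRE BMDM counts rest on the 2 close CRE libraries. With these summed, 6 of the 8 lists held no called gene in the CRE BMDM response, and no list held one in CRE against WT under DMXAA or in the interaction. Around the members, the ligands had the highest median of the 8 gene lists in each of the 4 responses. In WT BMDCs 11 of 14 tested ligand genes were called higher and 0 lower, with a median log2 fold change of 3.02 against 0.02 over all genes, and in WT BMDMs 6 of 10 were higher, with a median of 2.30 against -0.08. Ifnb1, which encodes interferon-beta, was listed at 0 in every control outside the libraries numbered 3 and under DMXAA reached 35.01 to 56.97 FPKM in WT BMDCs, 20.3 to 52.3 FPKM in CRE BMDCs, 2.48 and 19.2 FPKM in WT BMDMs and 0 and 0.0826 FPKM in CRE BMDMs. Il27, a subunit of a cytokine that activates STAT3, rose by 7.16 ± 0.89 in WT BMDCs, 8.21 ± 0.31 in WT BMDMs and 2.05 ± 0.28 in CRE BMDMs, and the label difference of its BMDM responses was called at -6.16 ± 0.42 (adjusted p = 0.00408). With the CRE libraries summed it was the same size but not called (adjusted p = 0.776), nor was the CRE response (adjusted p = 0.287). Il12b, the shared subunit of IL-12 and IL-23, rose by 8.19 ± 0.70 in WT and 6.73 ± 0.65 in CRE BMDCs and did not pass the filter in BMDMs. Some ligand genes passed the filter only or mainly through DMXAA libraries and could hardly be called lower. They included Ifnb1, Il12b in BMDCs (controls at 0.181 to 0.781 FPKM) and Il27 in BMDMs (WT controls at 0.288 and 0.604 FPKM). The ligand counts and medians thus partly reflect the filter. The lists were chosen with earlier results of these data known.

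Of the 25 receptor chain genes tested in BMDCs, 12 were higher and 4 lower in WT and 8 higher and 3 lower in CRE, with median log2 fold changes of 0.51 and 0.41 against 0.02 and 0 over all genes. Of 21 in BMDMs, 9 were higher and 2 lower in WT and 5 higher and 0 lower in CRE, with medians of 0.52 and 0.40 against -0.08 and -0.01. Il15ra, the IL-15 binding chain, rose by 6.54 ± 0.24 in WT and 2.05 ± 0.21 in CRE BMDMs, and the difference was called (adjusted p = 0.00408). Its BMDM controls were at 0.374 to 0.553 FPKM, so it passed the filter there through DMXAA libraries alone and could hardly be called lower. With the CRE libraries summed, neither the difference (-4.49 ± 0.39, adjusted p = 0.776) nor the CRE rise (adjusted p = 0.109) was called. Il13ra1, a chain of an IL-4 and IL-13 receptor upstream of STAT6, rose in all 4 responses, by 2.02 ± 0.18 and 1.91 ± 0.18 in WT and CRE BMDCs and by 2.82 ± 0.21 and 1.88 ± 0.20 in WT and CRE BMDMs, the last not called with the CRE libraries summed (adjusted p = 0.238). Il12rb1, a chain of the IL-12 receptor upstream of STAT4, rose by 3.18 ± 0.45 in WT BMDCs and 2.60 ± 0.43 in WT BMDMs. Its controls were at 0.271 to 0.583 FPKM in BMDCs and 0.0681 to 0.775 FPKM in BMDMs, so it too passed through DMXAA libraries alone.

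Of the 4 Janus kinase genes, 3 were higher in WT BMDMs, 2 in CRE BMDMs and 1 in each BMDC label, and 0 fell, so that the share in each BMDC label was near that over all genes. Jak2 rose by 3.79 ± 0.23 in WT BMDMs and its WT BMDC value of 0.23 ± 0.18 was not called, a difference between the cell types that was called (-3.54 ± 0.29, adjusted p = 2.35e-05). Tyk2, a kinase of the type I interferon receptor, rose by 2.54 ± 0.40 in WT BMDMs and 1.05 ± 0.32 in WT BMDCs. Of the other STAT and SOCS genes with Irf9, 4 of 7 were higher and 2 lower in each BMDC label, 3 higher and 2 lower in WT BMDMs and 2 higher in CRE BMDMs. Irf9, the DNA-binding partner of STAT2, rose by 2.35 ± 0.13 and 1.73 ± 0.13 in WT and CRE BMDMs and by 1.86 ± 0.19 and 1.89 ± 0.19 in WT and CRE BMDCs. Its CRE BMDM rise was not called with the CRE libraries summed (adjusted p = 0.122). Socs6 fell in BMDCs, with -1.74 ± 0.35 in WT and -1.19 ± 0.35 in CRE.

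**Figure D4:**
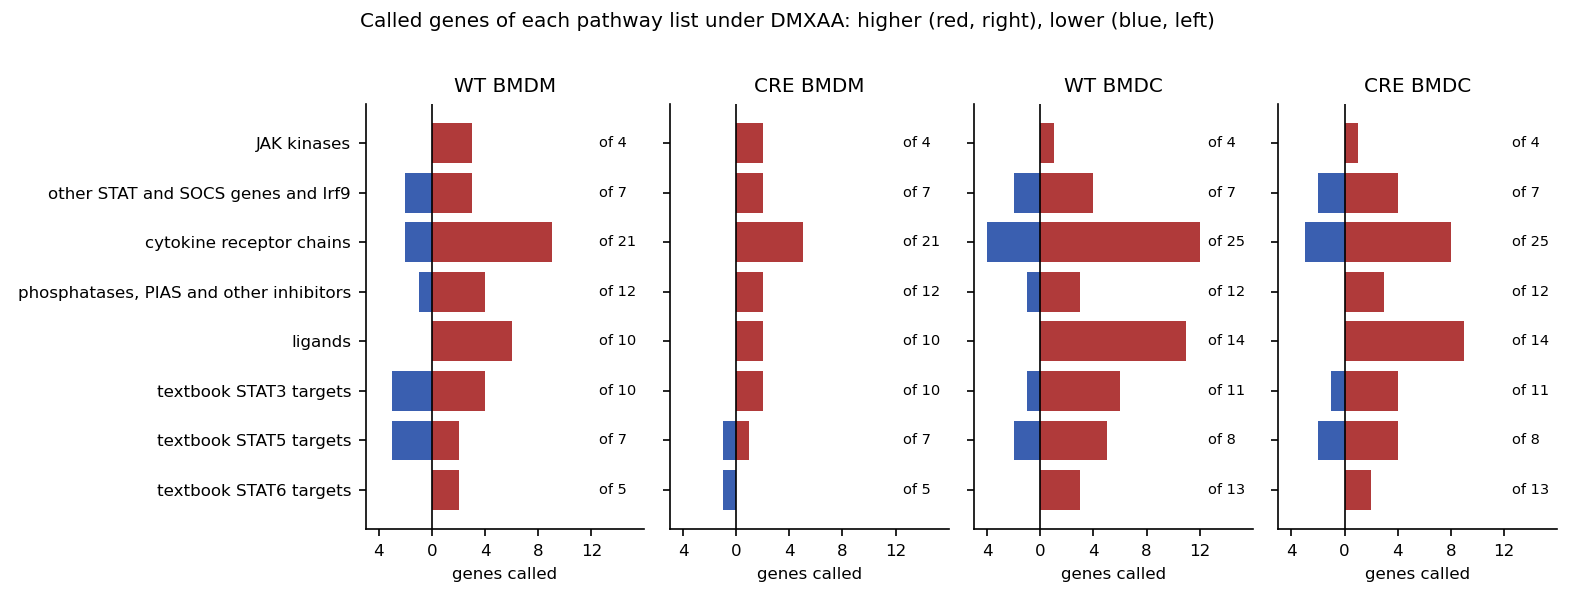
Number of called genes (horizontal axis) that were higher (right) or lower (left) under DMXAA in each pathway list (vertical axis), with the number of genes tested at the right of each bar, in the 4 responses. The ligand bars reach 11 of 14 in WT BMDCs and 9 of 14 in CRE BMDCs but 6 of 10 and 2 of 10 in WT and CRE BMDMs.

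Of 12 phosphatases, PIAS proteins and other inhibitors, 3 were higher and 1 lower in WT BMDCs, 3 and 0 in CRE BMDCs, 4 and 1 in WT BMDMs and 2 and 0 in CRE BMDMs, shares near those over all genes in BMDCs and WT BMDMs. Usp18, which blocks the interferon receptor, rose in all 4 responses, by 6.49 ± 0.36 in WT BMDCs and 8.64 ± 0.40 in WT BMDMs, and its CRE BMDM rise was still called with the CRE libraries summed (7.46 ± 0.67, adjusted p = 0.0416). Of textbook targets of STAT3, 6 of 11 were higher and 1 lower in WT BMDCs, with a median log2 fold change of 0.72 against 0.02 over all genes, and 4 of 10 were higher and 3 lower in WT BMDMs, with a median of 0.95 against -0.08. Among them Myc, a growth regulator, fell by 2.16 ± 0.36 in WT BMDCs and fell by 2.48 ± 0.73 in WT BMDMs, and Saa3, an acute phase protein gene, rose by 2.65 ± 0.41 in WT BMDCs. The BMDC controls of Saa3 were at 0.169 to 0.328 FPKM, so it passed the filter there through DMXAA libraries alone. Of textbook STAT5 targets, 5 of 8 were higher and 2 lower in WT BMDCs, and 2 of 7 higher and 3 lower in WT BMDMs. The cell cycle gene Ccnd2 rose in all 4 responses, by 1.62 ± 0.32 to 2.86 ± 0.56, and the survival gene Bcl2 fell in all 4, with log2 fold changes of -2.64 ± 0.19 in WT BMDMs and -0.96 ± 0.18 in CRE BMDMs. With the CRE libraries summed, the CRE BMDM calls of both were lost (adjusted p = 0.608 for Ccnd2 and 0.787 for Bcl2), and so were the WT BMDM calls of Ccnd2 (adjusted p = 0.0705) and Myc (adjusted p = 0.134). Of textbook STAT6 targets, 3 of 13 were higher in WT BMDCs and 2 of 5 in WT BMDMs, and 0 fell in either, with a lower share in BMDCs than the 30.9% over all genes and a share in BMDMs near the 39.2%. They included Il1rn, the IL-1 receptor antagonist gene, at 3.70 ± 0.64 in WT BMDCs, and Ccl22, a dendritic cell chemokine gene, at 2.38 ± 0.51 in WT BMDCs and 3.14 ± 0.43 in WT BMDMs. In WT BMDMs Ccl22 was near the floor, at 0.184 and 0.211 FPKM in control and 1.52 and 2.26 FPKM under DMXAA. It passed the BMDM filter through those DMXAA libraries alone. Its WT BMDC means were 502 FPKM in control and 2661 FPKM under DMXAA. In controls, 10 of 13 STAT6 targets were higher in WT BMDCs than in WT BMDMs, where 28.5% of 13368 genes were called in either direction. The median log2 difference was 10.21 against -0.02 over all genes. However, 5 of the list's genes passed the filter in the BMDM fit, so the others entered mainly through BMDC libraries. The direction of those genes and the size of the median were thus largely set by the filter.

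The members' patterns over the 20 libraries without BMDM number 3 were compared with those of 13368 genes by Pearson's r of log2(FPKM + 1). Cish was closest to Irf4 (r = 0.998), Rnase2a and Pdcd1lg2, Socs2 to Serpinb1a (r = 0.992), Ccl17 and Dpy19l3, and Stat4 to Dmrta2 (r = 0.984), Ramp3 and Gm12606. These 3 members were also alike among themselves, at r of 0.959 to 0.982. Stat2 was closest to Eif2ak2 (r = 0.994), Dtx3l and H2-T24, and Stat3 to Triobp (r = 0.984), Il15ra and Stx11. Socs1 was closest to Hcar2 (r = 0.991), Zyx and Serpina3g, and Socs3 to Pdlim1 (r = 0.984), Hbegf and Atrnl1. Stat5a was closest to Alpk2 (r = 0.978), Stat5b and Clu, and Stat6 to Ikbkb (r = 0.951), Sap130 and Zfp384. The points share libraries, cell type and treatment, so these values describe patterns and carry no test.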

How the data were processed

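RNA from 24 libraries in 8 groups was analysed. The authors deposited raw counts per gene and FPKM values. The submitters' processing notes name CASAVA 1.8, fastp, HISAT2 2.0.5, featureCounts 1.5.0-p3 and DESeq2 1.20.0, with builds GRCm38 and mm10, and strand use in counting is not given in the sources used here. Gene coordinates equalled those of GENCODE M21 (GRCm38) for 53548 of 54495 shared genes. The deposited FPKM use an effective library size of 0.687 to 1.33 times the sum of counts, which scales all FPKM of a library alike. Outside the BMDM libraries numbered 3 this factor was 1.03 to 1.16 in controls and 0.687 to 0.893 under DMXAA. There, FPKM thus rise more, or fall less, than CPM from control to DMXAA. In BMDMs under DMXAA the factor was 0.687 and 0.771 in WT and 0.891 and 0.884 in CRE numbers 1 and 2. FPKM thus place WT higher against CRE in that comparison than CPM do. The authors' own comparison columns hold fold changes and p-values and were not used.

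The members, lists and tests were chosen with earlier results of these data known. Counts were scaled by TMM and fitted in edgeR 4.0.16 (R 4.3.3) with two-sided quasi-likelihood F tests, in 1 fit of the 12 BMDC libraries, 1 of the 8 BMDM libraries numbered 1 and 2, and 1 of these 20 for cell types. Genes needed at least 1 FPKM in at least 2 libraries of the fit, and an adjusted p (Benjamini-Hochberg, all genes) under 0.05 was called. Standard errors are the log2 fold change over the square root of F. The scripts were tested on simulated data. Every tested member is named in the 4 DMXAA responses, and elsewhere those with an unadjusted p under 0.05. List genes named are drawn from the at most 3 of each list with the largest called responses. Pairing was checked by correlating deviations from group means: in BMDCs, control and DMXAA libraries of 1 number within a label correlated at 0.361 to 0.662, so the numbers were taken to pair these. Summing the CRE BMDM libraries was added after the data were seen. Alternatives also covered scaling, filters, DESeq2 1.42.0, limma 3.58.1 on log2(FPKM + 1), a fold threshold and leaving out each library. Depth limits low genes, since the BMDM values of Stat4, Socs2 and Cish rest on few reads. Values of 1 gene of the pathway lists are not reported here.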

Additional observations from a re-analysis of the deposited data

Results flagged for a closer look

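Among the members, 3 differences between responses passed the test of the difference itself. The BMDM response of Stat3 differed between the labels by -1.16 ± 0.18 on the log2 scale (edgeR adjusted p = 0.0271), being smaller in both CRE libraries, and the call was lost without any 1 of the 4 CRE libraries and with these summed to 1 per group (adjusted p = 0.871). The WT response of Socs1 was smaller in BMDCs than in BMDMs by -4.86 ± 0.50 (adjusted p = 6.58e-05). The WT response of Stat5a was larger in BMDCs than in BMDMs by 2.74 ± 0.47 (adjusted p = 0.00484), a rise in 3 of 3 BMDC libraries under DMXAA against lower values in 2 of 2 BMDM libraries. Groups of 3 libraries were too small for the test for single outlying samples.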

How the results depend on the processing

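Over the members' DMXAA responses and their other results with an unadjusted p under 0.05, settings other than leaving out a library kept direction and side of the threshold in 350 values, lost the call in 33, gained it in 21 and turned the direction in 2. Leaving out 1 library gave 219, 28, 7 and 8. The cause of these changes was not tested, except that leaving out or summing libraries leaves fewer samples.

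With the BMDM libraries numbered 3 included, 0 members were called in the WT and CRE BMDM responses, in CRE against WT under DMXAA, in the BMDM interaction of label and DMXAA and in that of cell type and DMXAA, and 7 values changed direction, none of them called in either fit. These were Socs3 in the CRE BMDM response (0.33), Stat5a in CRE against WT under DMXAA (-0.10) and in control (-0.32), Stat2 in control (-0.12), Stat3 and Stat6 in BMDC against BMDM (-0.018 and 0.090) and Stat3 in the interaction of cell type and DMXAA (0.15). With the CRE BMDM libraries summed, 0 members were called in the CRE BMDM response, in CRE against WT under DMXAA and in the BMDM interaction. With no filter, 7 members were called in CRE against WT BMDMs under DMXAA, where 3630 of 23641 genes were called. In control 1 member and 700 genes were called. There were 4 members called in the BMDM interaction and 4 in the cell type interaction, the latter with 836 of 30484 genes called. Stat4, Socs2 and Cish entered the BMDM fit on few reads. The FPKM filter of 5, DESeq2 and limma each called 2 in the BMDM interaction. DESeq2 called 1 in CRE against WT BMDMs in control, where it called 126 of 11569 genes. These counts show how calls depend on the settings and are not read as a result about the members.

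With the replicate number as a block within each label, 3 members were called in the BMDM interaction. The BMDM numbers pair nothing by the labels, and over 2 pairs control and DMXAA deviations correlated at 0.638 in WT and 0.0330 in CRE, so no BMDM value with this block is read as an effect. In BMDCs this block changed no call of a member other than those given with the results of Stat4, Stat6 and Cish. Same-numbered WT and CRE BMDC libraries of the same treatment correlated at -0.487 to -0.0992.

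Leaving out 1 library at a time, 1 member was called in the CRE BMDM response, 1 to 3 in CRE against WT under DMXAA, 0 to 1 in control and 0 to 3 in the BMDM interaction. Values whose sign changed were Socs2 in the WT (-0.34 to 0.042) and CRE (-0.55 to 0.013) BMDC responses, Stat4 in the CRE BMDC response (-0.033 to 0.78), Stat6 in the WT BMDM response (-0.075 to 0.37) and Socs3 in the CRE BMDM response (-0.28 to 0.10). None of these was called. Where an arm kept 1 library, it was assumed to vary like the other groups.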
